A study of Rattus norvegicus with 20 samples.

Results

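GABA-A receptors are chloride channels opened by the transmitter GABA, and 7 of their subunit genes were followed here in rat globular bushy cells: Gabra2, Gabra3, Gabra5, Gabrb1, Gabrb2, Gabrg1 and Gabrd. Every probe set that the platform annotation ties to exactly 1 gene, where that gene is one of the 7, was taken whatever its values. This gave 10 probe sets out of 20826 that name a single gene and 31099 in the table, and 7 genes out of 14217. Globular bushy cells lie in the ventral cochlear nucleus, and each sends an axon to the medial nucleus of the trapezoid body (MNTB) of the other side, where it ends in the giant terminal called the calyx of Held. In Sprague Dawley rats the cells were filled from that target with the retrograde tracer Cholera toxin B, injected 24 h before the brain was taken. From frozen sections of 12 µm, 200 labelled cells per animal were cut out with a laser and pooled, and their RNA was amplified linearly in 2 rounds and labelled with biotin. The groups were 6 animals at P3, just after the calyx forms, 9 at P8, a juvenile stage, and 5 at P21, when the synapse is mature, with 1 array per animal. No gene was altered and no drug was given in any group, and all of the animals carried the tracer.

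A GABA-A receptor is a ring of subunits, most often alpha and beta subunits together with a gamma or a delta subunit. GABA binds between alpha and beta, benzodiazepines bind between alpha and gamma, receptors with a gamma subunit gather at synapses, and receptors with the delta subunit lie mostly outside them and carry a slow, tonic current. In much of the rat brain the alpha subunits change after birth, and alpha2, alpha3 and alpha5 are prominent in young neurons. Bushy cells receive inhibition by both GABA and glycine.

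All levels are log2(intensity + 1) of 1 probe set, and the level of one probe set is not set against that of another. Replicates 5 to 9 at P8 stood apart from the other 15 arrays: their spike-in controls averaged 12.94 to 13.85, against 8.53 to 9.36 on the others, and their median intensity over all probe sets was 58.9 to 67.5, against 23.8 to 32.5. Their values are given separately, and the main comparisons use the 15 other arrays. Calls of subunits and pathway genes described below that are lost when all 20 are used are named beside them. Not every call gained over 20 arrays is named. The 5 added arrays are all P8, so P21 minus P3 has the same difference over 15 and over 20 arrays. Its call can change only through the spread shared over all ages and the adjustment over the probe sets tested. All 12 measured genes of a list of bushy cell and fast auditory neuron markers were above log2 4 on at least 1 array of every group. Of these, 9 rose and 0 fell at P21 relative to P3, beside 20.1% and 19.0% of all tested probe sets. Their summed intensity was 9317 to 14131 on P8 replicates 1 to 4 and only 3335 to 8884 on P8 replicates 5 to 9. Signs of other cells and of RNA quality moved with age too. The summed intensity of 11 oligodendrocyte markers was 820 to 2185 at P3, 5718 to 8896 on P8 replicates 1 to 4 and 7278 to 10829 at P21, and that of 7 oligodendrocyte precursor markers was 2150 to 2634, 1422 to 1780 and 747 to 1153. The GAPDH 3′ minus 5′ difference, which grows as RNA shortens, was 2.52 to 3.20 at P3, 2.91 to 3.86 on P8 replicates 1 to 4 and 3.30 to 4.71 at P21, so the P21 and P3 arrays did not overlap in it. On P8 replicates 5 to 9 it was 1.65 to 2.54. Astrocyte markers summed to 11675 to 26350 on replicates 5 to 9, against 5844 to 9566 on replicates 1 to 4. The list was split, so its sum does not speak for each member. Gja1 averaged 13.10 on replicates 5 to 9 against 10.85 on replicates 1 to 4, and Aldoc 6.84 against 9.53. Slc4a4, S100b and Fgfr3 also averaged lower on replicates 5 to 9, and the remaining members higher. Microglia markers summed to 701 to 889, against 167 to 281. Oligodendrocyte and precursor markers overlapped between these sets, at 1863 to 6472 and 1025 to 2656 on replicates 5 to 9. The part of these in the results below was not tested.

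Promoter windows of the genes that carry the results are shown first, because each is later described by its level. They run from 250 bases before to 50 bases after the annotated gene start, come from RefSeq on assembly GRCr8, and are printed 5′ to 3′ on the gene's own strand. Of the 7 genes 6 had such a window, and the windows of Gabrd, with a probe set that rose, of Gabra5 and Gabrb1, which fell, and of Gabrb2, the sister of Gabrb1, are printed. Capitals mark matches, on either strand, to the motifs named below and runs of at least 10 letters that a pair of the windows has in common.
Gabrd, chr5:171252660-171252959, minus strand: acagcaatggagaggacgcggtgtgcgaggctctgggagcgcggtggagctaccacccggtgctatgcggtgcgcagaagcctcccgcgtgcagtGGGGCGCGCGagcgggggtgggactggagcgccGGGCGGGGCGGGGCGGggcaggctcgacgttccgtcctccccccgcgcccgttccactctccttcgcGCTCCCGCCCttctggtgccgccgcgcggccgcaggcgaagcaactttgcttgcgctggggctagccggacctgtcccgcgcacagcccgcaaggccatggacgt
Gabra5, chr1:117516557-117516856, minus strand: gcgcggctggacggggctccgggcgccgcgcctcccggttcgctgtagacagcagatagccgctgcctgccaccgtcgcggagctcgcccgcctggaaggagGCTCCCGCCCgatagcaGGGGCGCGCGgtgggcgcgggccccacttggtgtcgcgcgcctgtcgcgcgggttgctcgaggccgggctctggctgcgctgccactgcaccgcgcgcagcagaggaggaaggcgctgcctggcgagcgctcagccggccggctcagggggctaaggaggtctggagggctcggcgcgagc
Gabrb1, chr14:36902844-36903143, minus strand: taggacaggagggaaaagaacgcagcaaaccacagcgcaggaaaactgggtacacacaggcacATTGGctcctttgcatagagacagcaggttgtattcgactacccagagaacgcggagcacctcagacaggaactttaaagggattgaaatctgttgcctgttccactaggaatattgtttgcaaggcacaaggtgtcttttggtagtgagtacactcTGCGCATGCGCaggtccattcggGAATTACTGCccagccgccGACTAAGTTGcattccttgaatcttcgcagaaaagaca
Gabrb2, chr10:27439543-27439842, plus strand: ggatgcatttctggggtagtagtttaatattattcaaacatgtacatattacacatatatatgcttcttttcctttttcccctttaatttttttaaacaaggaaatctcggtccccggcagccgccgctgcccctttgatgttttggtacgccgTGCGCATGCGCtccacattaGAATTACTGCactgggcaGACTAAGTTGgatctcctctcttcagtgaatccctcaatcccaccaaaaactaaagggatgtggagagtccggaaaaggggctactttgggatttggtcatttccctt

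The delta and alpha5 windows are rich in G and C, at 73.7% and 76.3%, whereas the beta1 and beta2 windows hold 49.3% and 44.0%, and the median over 33469 promoter windows of this length is 51.7%. The GC box GGGCGG, searched on both strands, occurs 4 times in the Gabrd window, with 3 copies in a row that overlap by a letter, and once in that of Gabra5, and 33.1% of all windows hold it. CCAAT occurs once in the Gabrb1 and Gabra3 windows and 2 times in that of Gabrg1 (37.5% of all windows), and TATAAA occurs in that of Gabra3 (14.2%). Neither TGACG (21.2%) nor GCGNGGGCG (4.98%), which can overlap a GC box, occurs in any of the 6 windows. The beta1 and beta2 windows share 3 runs in the same order, TGCGCATGCGC, GAATTACTGC and GACTAAGTTG, which 0.379%, 0.0209% and 0.00896% of all windows contain. The first of these reads as the known consensus of the factor NRF-1. Among the 15 pairs of windows, the only other pair with a common run was Gabra5 and Gabrd, with GCTCCCGCCC (0.293%) and GGGGCGCGCG (0.505%). The common runs were picked after the sequences were seen, and all of these matches are descriptions of letters, not of binding.

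From P3 to P21 probe set 1369048_at of the delta subunit gene rose, while its other tested probe set was not called (a difference of 0.06), and the transcripts of alpha2, alpha5 and beta1 fell. That of beta2 stood higher on every P21 array than on every P3 array without passing the test. Gabrd 1369048_at was 5.26 times higher at P21 than at P3, and Gabra2, Gabrb1 and Gabra5 were 4.58, 2.17 and 1.79 times lower on the log2(intensity + 1) scale, which understates changes of dim probe sets. Of the 10 probe sets 7 were above log2 4 on at least 5 of the 15 arrays and were tested, and each of the 7 would have met that rule without the age at which it was highest. The other 3, a single probe set of Gabra3 and second probe sets of Gabrb2 and Gabrd, were too dim. The cells were pooled, so fewer cells of a type and less RNA per cell cannot be told apart in any of these differences.

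**Figure D1:**
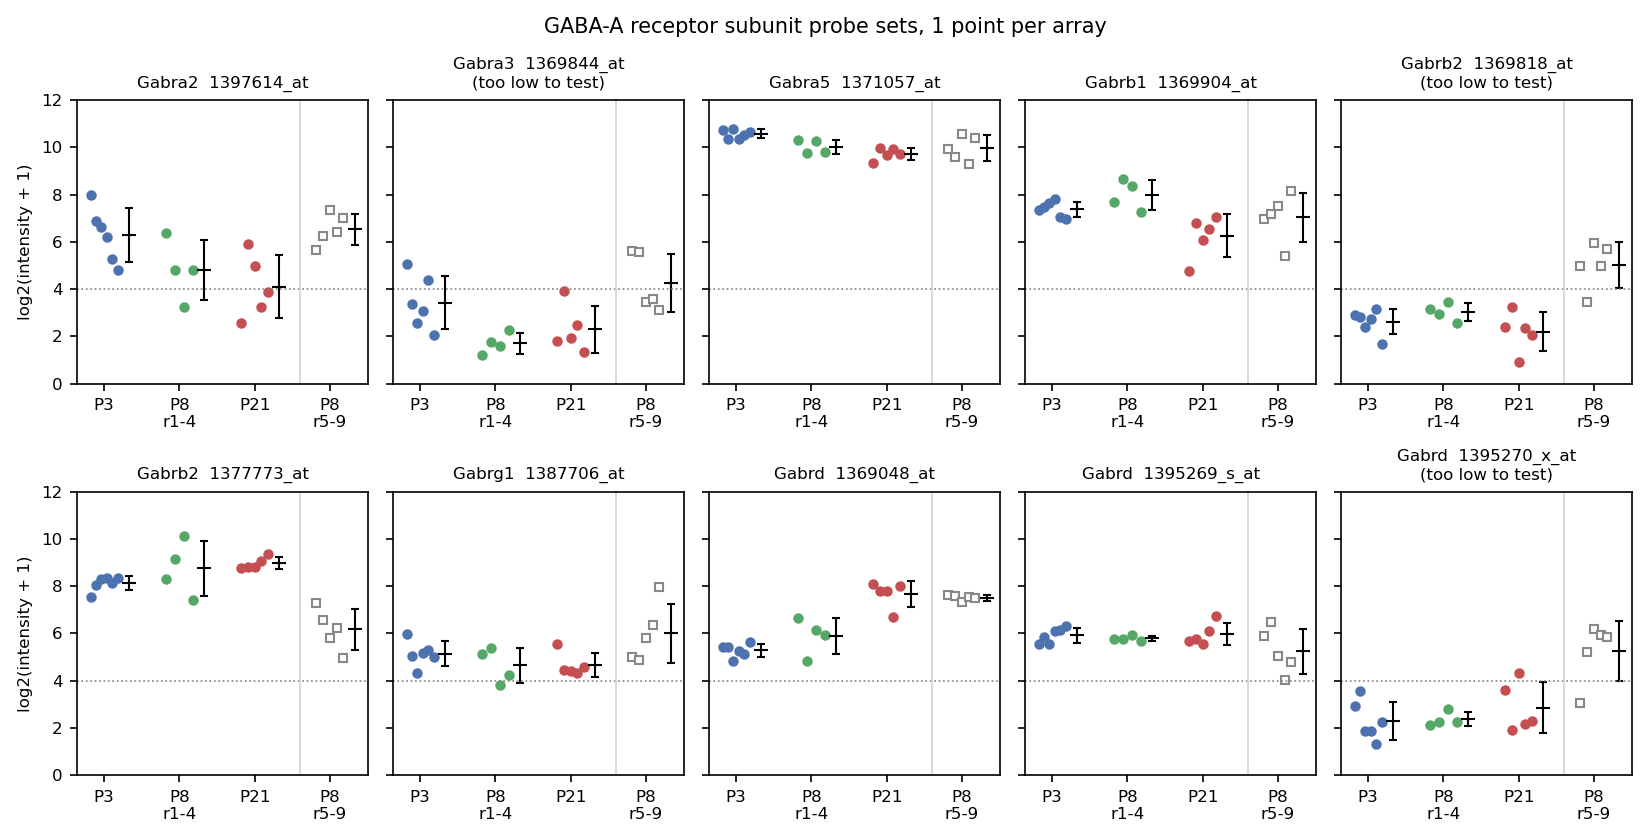
Level of each of the 10 subunit probe sets, log2(intensity + 1) on the vertical axis, with 1 point per array for P3 (6), P8 replicates 1 to 4 (4) and P21 (5), and open squares for P8 replicates 5 to 9 (5). Black bars are group means ± SD, the dotted line is log2 4, and probe set 1369048_at of Gabrd climbs at P21, where its 5 arrays sit between 6.69 and 8.08, above all P3 arrays.

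The alpha subunits, which with beta form the GABA binding site, are taken first. Gabra5 encodes alpha5, known from extrasynaptic receptors of hippocampal pyramidal cells. It had 10.35, 10.60 and 10.80 as its lowest, median and highest level at P3. At P8 it had 10.32, 9.76, 10.27 and 9.79 on replicates 1 to 4, and at P21 9.34, 9.98, 9.70, 9.92 and 9.73. Every P8 and every P21 array of these lay below every P3 array, and the P21 and P8 arrays overlapped. The means were 10.58 ± 0.20 at P3, 10.03 ± 0.30 at P8 and 9.74 ± 0.25 at P21 (SD, n = 6, 4 and 5). The difference of P21 minus P3 was -0.84 ± 0.16 (SE, limma adjusted p = 8.50e-04), and it stayed past the threshold under all 12 other settings and when each of the 15 arrays was left out. The difference of P8 minus P3 was -0.54 ± 0.17 (adjusted p = 0.0458), a narrow call that was lost in 11 of the 15 fits leaving out an array (adjusted p = 0.122 without P8 replicate 2) and over all 20 arrays (adjusted p = 0.0552). That of P21 minus P8, -0.30 ± 0.18, was not called (adjusted p = 0.285). On P8 replicates 5 to 9 Gabra5 ran from 9.28 to 10.58, across the range of replicates 1 to 4.

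Gabra2, which encodes alpha2, a subunit found at many forebrain synapses and on axon initial segments, fell with a wide spread. Its levels were 4.82, 6.42 and 7.97 (lowest, median and highest) at P3. They were 6.39, 4.82, 3.26 and 4.80 at P8 and 2.56, 5.93, 4.96, 3.23 and 3.86 at P21. On 3 of the 5 P21 arrays it was below every P3 array, and the other two lay within the P3 range, so the groups overlapped. Group means of 6.30 ± 1.14, 4.82 ± 1.28 and 4.11 ± 1.35 at P3, P8 and P21 gave P21 minus P3 as -2.19 ± 0.68 (limma adjusted p = 0.0185). This call was lost without P21 replicate 1 (adjusted p = 0.0537). Neither step passed alone, P8 minus P3 at -1.48 ± 0.72 (adjusted p = 0.176) and P21 minus P8 at -0.71 ± 0.75 (adjusted p = 0.565). Replicates 5 to 9 at P8 had 5.66 to 7.36, within the P3 range.

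Gabra3 encodes alpha3, prominent in embryonic and newborn cortex and in brainstem monoamine neurons of the adult. Its probe set was above log2 4 on 2 of 6 P3 arrays and on no P8 replicate from 1 to 4 and no P21 array, so it was not tested over 15 arrays. The levels were 2.04 to 5.06 at P3, with a median of 3.22. They were 1.20, 1.77, 1.58 and 2.26 at P8 and 1.81, 3.93, 1.93, 2.49 and 1.32 at P21. The P3 and P21 arrays overlapped, as did P8 replicates 1 to 4 and both. On P8 replicates 5 to 9 it had 3.10 to 5.63, and 2 of them were above every P3 array.

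The beta subunits, the partners of alpha at the GABA site, differed in their course. Gabrb1 encodes beta1, the scarcest beta subunit in most of the adult brain. At P3 its levels were 6.95, 7.41 and 7.81 (lowest, median and highest). At P8 they were 7.71, 8.65, 8.35 and 7.25, and at P21 4.78, 6.82, 6.10, 6.53 and 7.07. Every P21 array was below every P8 array of replicates 1 to 4, and 4 of 5 were below every P3 array, with P21 replicate 1 lowest of all. P8 replicates 5 to 9 had 6.96, 7.19, 7.51, 5.39 and 8.15, so they overlapped both P21 and P3. Means over the 15 arrays were 7.37 ± 0.33 at P3, 7.99 ± 0.63 at P8 and 6.26 ± 0.90 at P21, so the order of the ages was P8, P3 and P21, and P8 and P3 did not differ beyond their spread (0.61 ± 0.39, adjusted p = 0.299). P21 minus P8 was -1.73 ± 0.40 (limma adjusted p = 0.00843), 3.31 times lower. P21 minus P3 was -1.11 ± 0.36 (adjusted p = 0.0236). Over all 20 arrays neither was called (-1.20, adjusted p = 0.0589, and adjusted p = 0.144), the P21 and P8 call was also lost when only those ages entered the fit (adjusted p = 0.0514), and without P21 replicate 1 P21 minus P3 was -0.74 (adjusted p = 0.0507).

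Gabrb2 encodes beta2, an abundant beta subunit of the mature brain. Probe set 1377773_at had levels of 7.56, 8.23 and 8.35 (lowest, median and highest) at P3. At P8 they were 8.32, 9.14, 10.12 and 7.43, and at P21 8.75, 8.83, 8.83, 9.06 and 9.37. All 5 P21 arrays were above all 6 P3 arrays, whereas the P8 arrays spread over a range wider than both. The difference of P21 minus P3, 0.84 ± 0.35, did not pass (limma adjusted p = 0.0705), in a fit that shares the spread over all ages. It passed when only P21 and P3 entered the fit (adjusted p = 0.00204), with array weights (0.76, adjusted p = 0.0186), with the stricter filter at log2 6 (adjusted p = 0.0497) and without P8 replicate 3 or P8 replicate 4 (adjusted p = 0.0161 and 0.0217). It stayed uncalled under 9 of the 12 other settings, over all 20 arrays among them (adjusted p = 0.496). In all but 2 of the 15 fits leaving out an array it was not called either (adjusted p up to 0.143). P8 minus P3 was 0.63 ± 0.37 (adjusted p = 0.27) and P21 minus P8 0.21 ± 0.39 (adjusted p = 0.756). On P8 replicates 5 to 9 this probe set had 4.96 to 7.30, all below replicates 1 to 4, and with all 20 arrays P8 minus P3 turned to -0.81 (adjusted p = 0.274). The second probe set, 1369818_at, was at or under 3.45 on all 15 arrays and at 3.47 to 5.94 on P8 replicates 5 to 9, so on those arrays the 2 probe sets of Gabrb2 lay on opposite sides of replicates 1 to 4.

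Gabrg1 encodes gamma1, a gamma subunit found in amygdala, basal ganglia and glia. Its levels were 4.34, 5.10 and 5.96 (lowest, median and highest) at P3. They were 5.13, 5.39, 3.82 and 4.22 at P8 and 5.56, 4.46, 4.42, 4.34 and 4.58 at P21. All 3 ages overlapped. The differences were -0.49 ± 0.35 for P8 minus P3 (limma adjusted p = 0.36), 0.03 ± 0.36 for P21 minus P8 (adjusted p = 0.963) and -0.46 ± 0.33 for P21 minus P3 (adjusted p = 0.287). Replicates 5 to 9 at P8 reached from 4.87 to 7.96.

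Gabrd encodes delta, the subunit of tonic receptors, which in cerebellar granule cells joins alpha6. Probe set 1369048_at had levels of 4.83, 5.33 and 5.64 (lowest, median and highest) at P3. At P8 it had 6.66, 4.85, 6.14 and 5.92, and at P21 8.08, 7.80, 7.78, 6.69 and 8.02. Every P21 array was above every P8 array of replicates 1 to 4 and above every P3 array, and 3 of 4 P8 arrays were above every P3 array. Means of 5.28 ± 0.28, 5.89 ± 0.76 and 7.67 ± 0.57 at P3, P8 and P21 gave P21 minus P3 as 2.39 ± 0.30 (limma adjusted p = 2.20e-05), which passed under all 12 other settings and all 15 fits leaving out an array. P21 minus P8 was 1.78 ± 0.34 (adjusted p = 0.00228), 3.44 times higher, and P8 minus P3 was 0.61 ± 0.32 (adjusted p = 0.212). The step at which it rose depended on the P8 arrays: replicates 5 to 9 had 7.31 to 7.62, above all of replicates 1 to 4 and within the P21 range, and over all 20 arrays P8 minus P3 was called (1.51, adjusted p = 0.0139) and P21 minus P8 was not (0.88, adjusted p = 0.113).

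The other tested probe set of Gabrd disagreed with this one. Probe set 1395269_s_at averaged 5.91 ± 0.33 at P3, 5.79 ± 0.11 at P8 and 5.97 ± 0.46 at P21, with P21 minus P3 at 0.06 ± 0.21 (limma adjusted p = 0.854), and all 3 ages overlapped. Probe set 1395270_x_at was above log2 4 on 1 of the 15 arrays, P21 replicate 3 at 4.34, and was not tested, and on P8 replicates 5 to 9 it had 3.07 to 6.19. The annotation takes 1369048_at from a RefSeq transcript record and the other two from a single expressed sequence tag, and where each lies on the transcript was not analysed here. Over the 15 arrays the levels of 1369048_at and 1395269_s_at had a Pearson r of 0.15, so the delta result rests on 1 probe set.

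**Figure D2:**
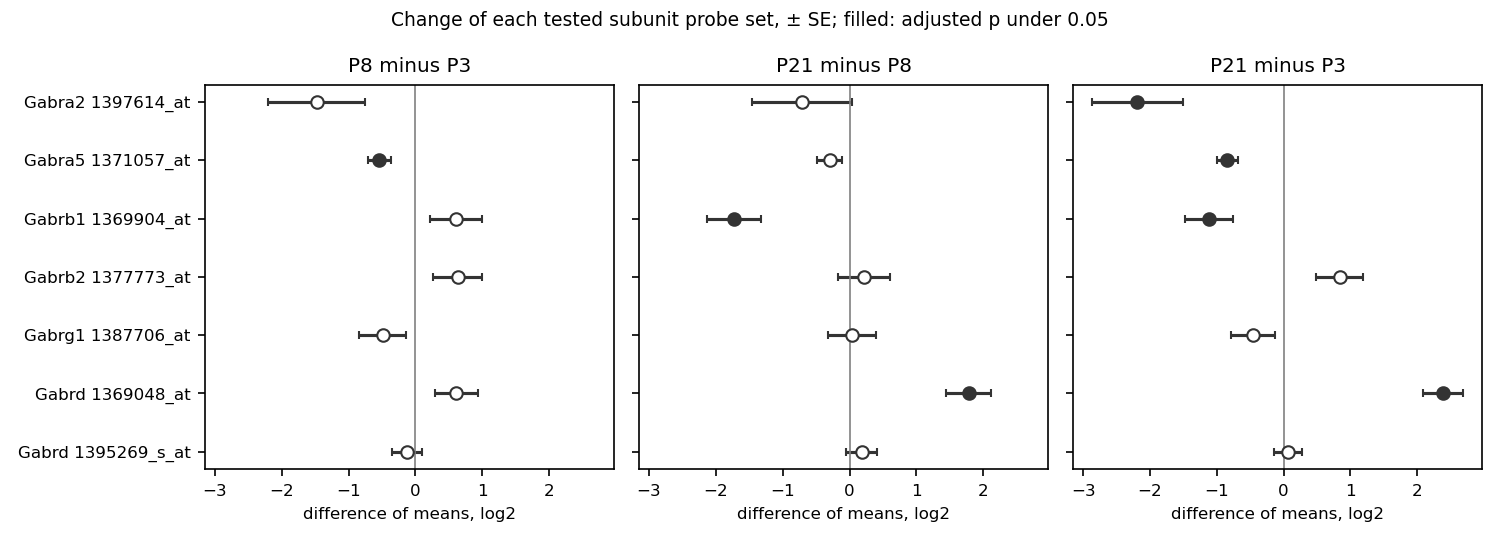
Differences of group means on the log2 scale (horizontal axis, ± SE) for the 7 tested subunit probe sets, in panels P8 minus P3, P21 minus P8 and P21 minus P3 from 1 fit over 15 arrays. Filled points passed an adjusted p of 0.05: Gabra5 in the first panel, Gabrb1 and Gabrd in the next, and Gabra2, Gabra5, Gabrb1 and Gabrd in the last.

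In counts, 1 of the 7 tested probe sets rose and 3 fell at P21 relative to P3, among 15647 tested of which 39.1% were called, 20.1% higher and 19.0% lower. For P21 against P8, 1 rose and 1 fell, beside 16.7% of all probe sets called, 8.31% higher and 8.42% lower. For P8 against P3, 0 rose and 1 fell, beside 15.6%, 7.81% higher and 7.75% lower. With all 20 arrays the share of all probe sets called was 12.6% for P21 against P3, 18.0% for P21 against P8 and 25.9% for P8 against P3. The median difference of the 7 was -0.46 for P21 minus P3, 0.03 for P21 minus P8 and -0.13 for P8 minus P3, against 0.02, 0.05 and -0.02 over all tested probe sets. With 7 probe sets, counts this near the background say nothing particular of the subunits as a group. The comparisons share arrays and are not independent of each other.

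**Figure D3:**
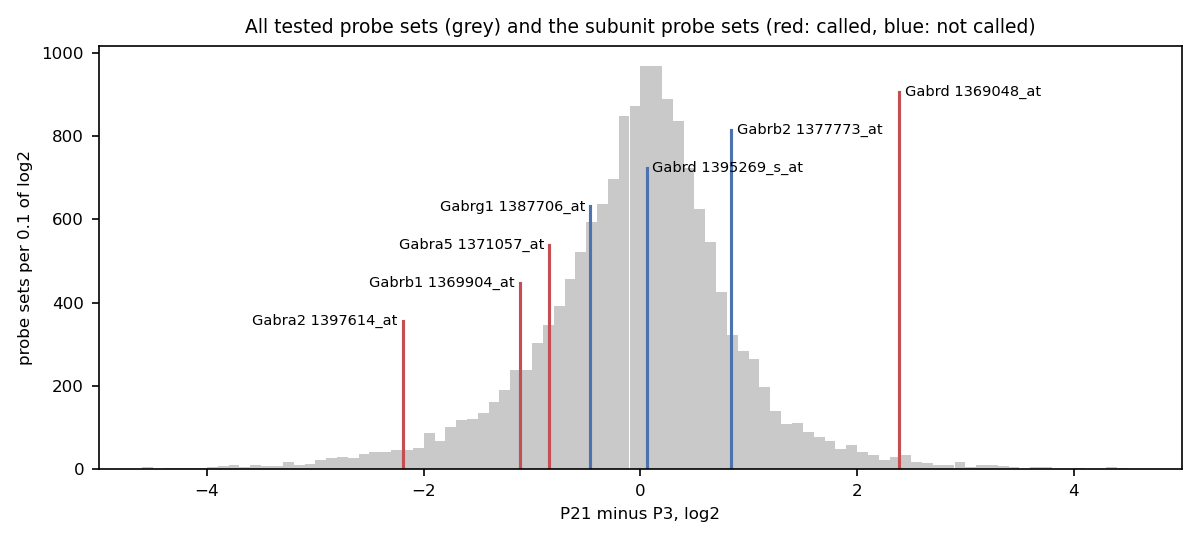
Histogram of P21 minus P3 differences (horizontal axis, log2) of all 15647 tested probe sets, as probe sets per 0.1 of log2 on the vertical axis. Vertical lines mark the 7 subunit probe sets, red where called and blue where not, and their height carries no value; Gabra2 at -2.19 and Gabrd 1369048_at at 2.39 lie in the tails, and the others within the body of the distribution.

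Beyond the 7 genes, 9 other subunit genes had a single-gene probe set, and 6 of them were tested. At P21 relative to P3, Gabrq was called higher, beside 20.1% higher and 19.0% lower of all probe sets. Gabra6 is not counted as a call, for the reason given below. Gabra6 encodes alpha6, known from granule cells of the cerebellum and the cochlear nucleus, where it partners delta. Its levels were 2.38, 3.61 and 3.93 (lowest, median and highest) at P3. They were 4.65, 5.16, 4.46 and 4.82 at P8 and 8.47, 7.23, 5.44, 8.13 and 10.21 at P21. On these 15 arrays the ages did not overlap, and the P21 arrays spread widely, whereas P8 replicates 5 to 9 had 4.82 to 8.35 and overlapped P21. No P3 array had it above log2 4, and it met the rule for testing only through P21, where it was highest, so its differences are a description: 4.48 ± 0.59 for P21 minus P3, 3.13 ± 0.66 for P21 minus P8 and 1.35 ± 0.63 for P8 minus P3, the last of which was 2.27 over 20 arrays.

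Markers of granule cells are given beside these values. The summed intensity of 11 measured markers was 2980 to 3652 at P3, 2618 to 3264 at P8 and 4516 to 5857 at P21, and none of the 11 stayed at or under log2 4 on every array of a group. Calb2 alone had 241 to 353, 457 to 1466 and 1595 to 2982, and without it the other 10 summed to 2722 to 3390 at P3, 1798 to 2521 at P8 and 2575 to 4261 at P21, so the P21 and P3 arrays then overlapped. Of the 10 tested, 3 rose at P21 relative to P3, Calb2, Slc17a7 and Tiam1, of which Calb2 and Slc17a7 are also on the bushy cell list, and 1 fell, the granule cell transcription factor Pax6 (all: 20.1% and 19.0%). At P21 relative to P8 replicates 1 to 4, 4 rose, Calb2, Fat2, Slc17a7 and Tiam1, and 0 fell (all: 8.31% and 8.42%). The median difference of the tested markers in that step was 0.83, against 0.05 over all. Neurod1, another such factor, averaged 8.01 at P3, 6.26 at P8 and 7.11 at P21, and Zic1 was low at 3.88, 3.59 and 3.53. The granule-specific cadherin gene Fat2 averaged 5.07, 3.83 and 5.36. On P8 replicates 5 to 9 Neurod1, Fat2, Pax6 and Zic2 averaged 8.13, 5.95, 9.64 and 6.66, against 6.26, 3.83, 6.82 and 5.34 on replicates 1 to 4. Of the 11 markers only Cbln1, Calb2 and Tiam1 averaged lower there, at 7.72, 7.29 and 8.07 against 10.06, 9.77 and 8.34. Their part in the Gabra6 and Gabrd differences was not tested.

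Gabrq, the theta subunit gene, rose by a small amount at P21 relative to P3 (0.40 ± 0.14, limma adjusted p = 0.0296), with P21 arrays at 4.94 to 5.26 and P3 arrays at 4.60 to 4.81, a call lost over 20 arrays (adjusted p = 0.695) and under 3 other settings. Gabrg3, Gabre, Gabrr1 and Gabrr2 differed by -0.04 to 0.46 and were not called. Gabra4, Gabrp and Gabrr3 were too dim to test. On P8 replicates 5 to 9, 6 of the 9 other subunit probe sets and 4 of the 10 probe sets of the 7 genes lay wholly above replicates 1 to 4. So did 28.2% of all single-gene probe sets. Wholly below lay 0 of the 9 and 1 of the 10, beside 12% of all.

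Some of the subunit genes lie in clusters. On chromosome 14 of GRCr8 Gabrb1, Gabra4, Gabra2 and Gabrg1 are neighbours, and of these Gabrb1 and Gabra2 fell at P21 relative to P3, Gabrg1 was not called and Gabra4 was too dim. On chromosome 10 Gabrb2 lies in a cluster with Gabra6. Gabra5 lies with Gabrg3 on chromosome 1, Gabra3 with Gabre and Gabrq on chromosome X, and Gabrd on chromosome 5.

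**Figure D4:**
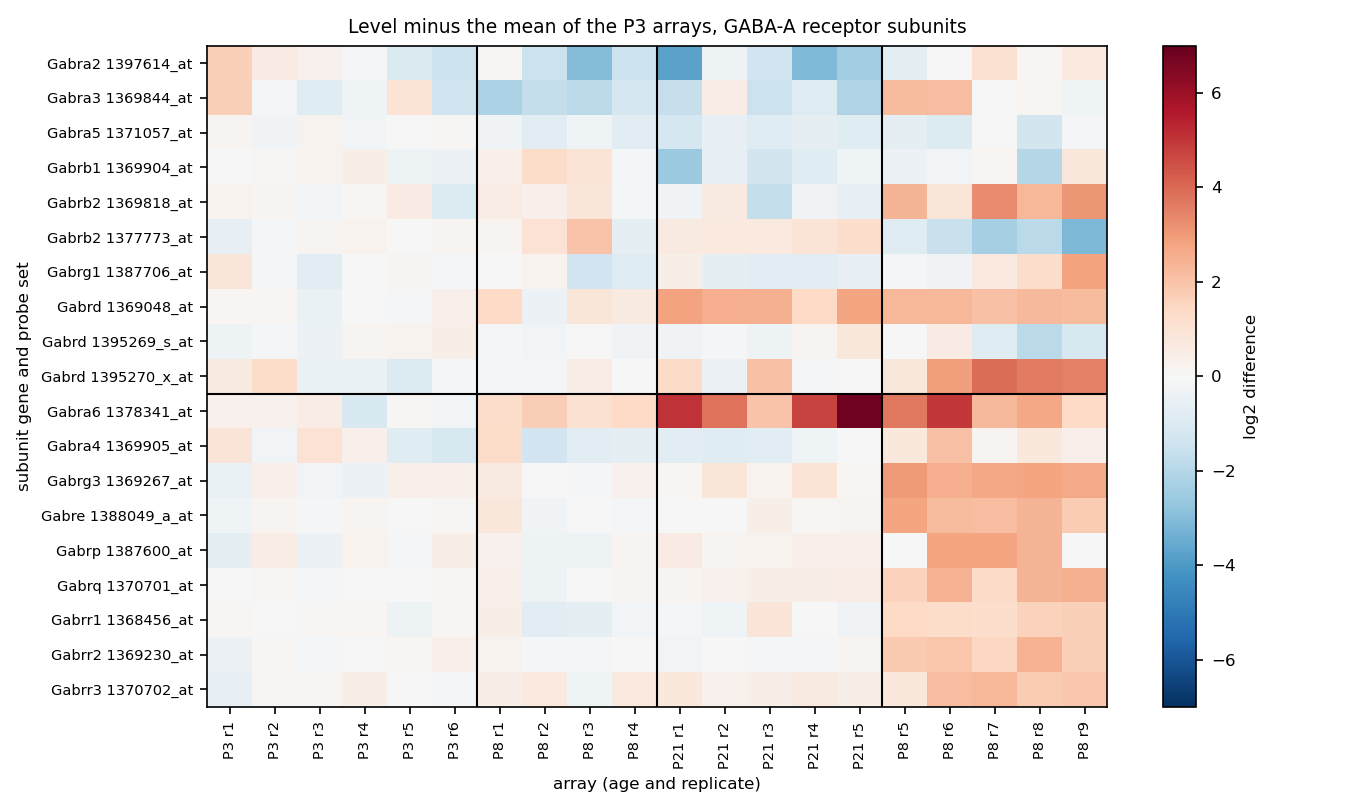
Level of each subunit probe set minus its mean over the P3 arrays (colour, log2), with arrays as columns (P3, P8 replicates 1 to 4, P21, then P8 replicates 5 to 9) and the 10 probe sets of the 7 genes above the line and 9 other subunits below it. Gabra6 and Gabrd 1369048_at turn red at P21, Gabra2 turns blue on most P21 arrays, and in the last 5 columns most dim subunits are red and Gabrb2 1377773_at is blue.

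Of the genes that place, assemble and move GABA-A receptors, 21 were tested, and 4 rose and 3 fell at P21 relative to P3, beside 20.1% and 19.0% of all probe sets. At P21 relative to P8, 2 rose and 1 fell (all: 8.31% and 8.42%), and at P8 relative to P3, 4 rose and 1 fell (all: 7.81% and 7.75%). The shares at P21 are near the background, while that of rises at P8 relative to P3 was above it, though on only 4 genes and without a test of the list. The median differences were 0.09, 0.17 and -0.02, in the order given. Over 20 arrays, of 22 tested, 1 rose and 0 fell at P21 relative to P3, beside 12.6% of all probe sets called in either direction. At P8 relative to P3, 1 rose and 5 fell over 20 arrays (all: 25.9% in either direction). Iqsec3, an exchange factor that binds gephyrin at inhibitory synapses, rose at P21: its levels were 7.56 to 7.83 at P3, 8.21 to 8.77 on P8 replicates 1 to 4, 6.90 to 8.34 on P8 replicates 5 to 9 and 9.24 to 9.92 at P21. Every P21 array was above all others, and P21 minus P3 was 1.93 ± 0.16 (limma adjusted p = 3.94e-07). P8 replicates 1 to 4 were above P3, but over 20 arrays P8 minus P3 was 0.37 and not called (adjusted p = 0.26). Nsf, the ATPase that acts in membrane fusion, differed by 1.52 ± 0.22 at P21 relative to P3 over 15 arrays (adjusted p = 6.21e-05). Over 20 arrays Nsf kept this difference with an SE of 0.97 and was not called (adjusted p = 0.376). Its P8 arrays split, and P8 minus P3 was 1.35 over 15 arrays (adjusted p = 0.00178), 0.75 with the mean of its probe sets (adjusted p = 0.0794) and -1.23 over 20 (adjusted p = 0.266). Gphn, which encodes the scaffold gephyrin, was lower at P21 than at P3 (-0.50, adjusted p = 0.0117), as was Shisa7, an auxiliary protein of the receptor (-1.14, adjusted p = 0.0199), and neither was called over 20 arrays (adjusted p = 0.696 and 0.111). Hap1, which carries receptors to the surface, differed by 1.31 for P8 minus P3 and -1.05 for P21 minus P8 (adjusted p = 0.00364 and 0.0129). It had 7.96 to 8.47 on P8 replicates 5 to 9, and over 20 arrays the second call was lost (-0.58, adjusted p = 0.139). Mkln1, the gene of muskelin, which binds the receptor, had P8 minus P3 at -0.75 and P21 minus P8 at 0.83 (adjusted p = 0.0126 and 0.00681). Its levels were 6.42 to 7.10 on P8 replicates 5 to 9, and over 20 arrays both calls were lost (-0.27 and 0.36, adjusted p = 0.394 and 0.294).

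The next list holds genes of chloride and bicarbonate handling, carbonic anhydrases among them. The sign of the GABA response depends on the chloride gradient, which only some of these genes set. Of 12 tested, 7 rose and 2 were called lower at P21 relative to P3, beside 20.1% higher and 19.0% lower of all probe sets, and their median difference was 0.72 against 0.02 over all. Over 20 arrays, of 13 tested, 4 rose and 0 fell, beside 12.6% of all probe sets called in either direction. Slc12a5, the chloride extruder KCC2, had 9.67 to 10.19 at P3, 10.56 to 11.08 at P8 and 10.38 to 11.17 at P21. The P21 and P3 arrays did not overlap, nor did P8 replicates 1 to 4 and P3, and P8 minus P3 was 0.87 ± 0.18 (limma adjusted p = 0.00473), whereas P21 minus P8 was 0.10 ± 0.18 (adjusted p = 0.766). Replicates 5 to 9 at P8 had only 9.07 to 9.77, and over 20 arrays P8 minus P3 was 0.11 (adjusted p = 0.807) and P21 minus P3 was no longer called (0.97, adjusted p = 0.0779). Slc12a2, the chloride importer NKCC1, rose as well at P21 relative to P3 (0.67, adjusted p = 0.0162), though not over 20 arrays (adjusted p = 0.217). Its regulating kinases Wnk1 and Stk39 rose by 0.81 and 0.83 (adjusted p = 1.84e-04 and 4.92e-04), and the neuronal carbonic anhydrase Car7 by 1.95 (adjusted p = 4.78e-05). The calls of these kinases and of Car7 held over 20 arrays (adjusted p = 0.0356, 0.0245 and 6.36e-04). The bicarbonate transporter gene Slc4a10 fell by 0.69 (adjusted p = 0.00529), a call lost over 20 arrays (adjusted p = 0.391). The chloride channel gene Clcn2 met the rule for testing only through P8, and its means of 2.70 at P21 and 3.61 at P3 were both under log2 4, so no fall is read from its call, which was also lost over 20 arrays (adjusted p = 0.185).

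**Figure D5:**
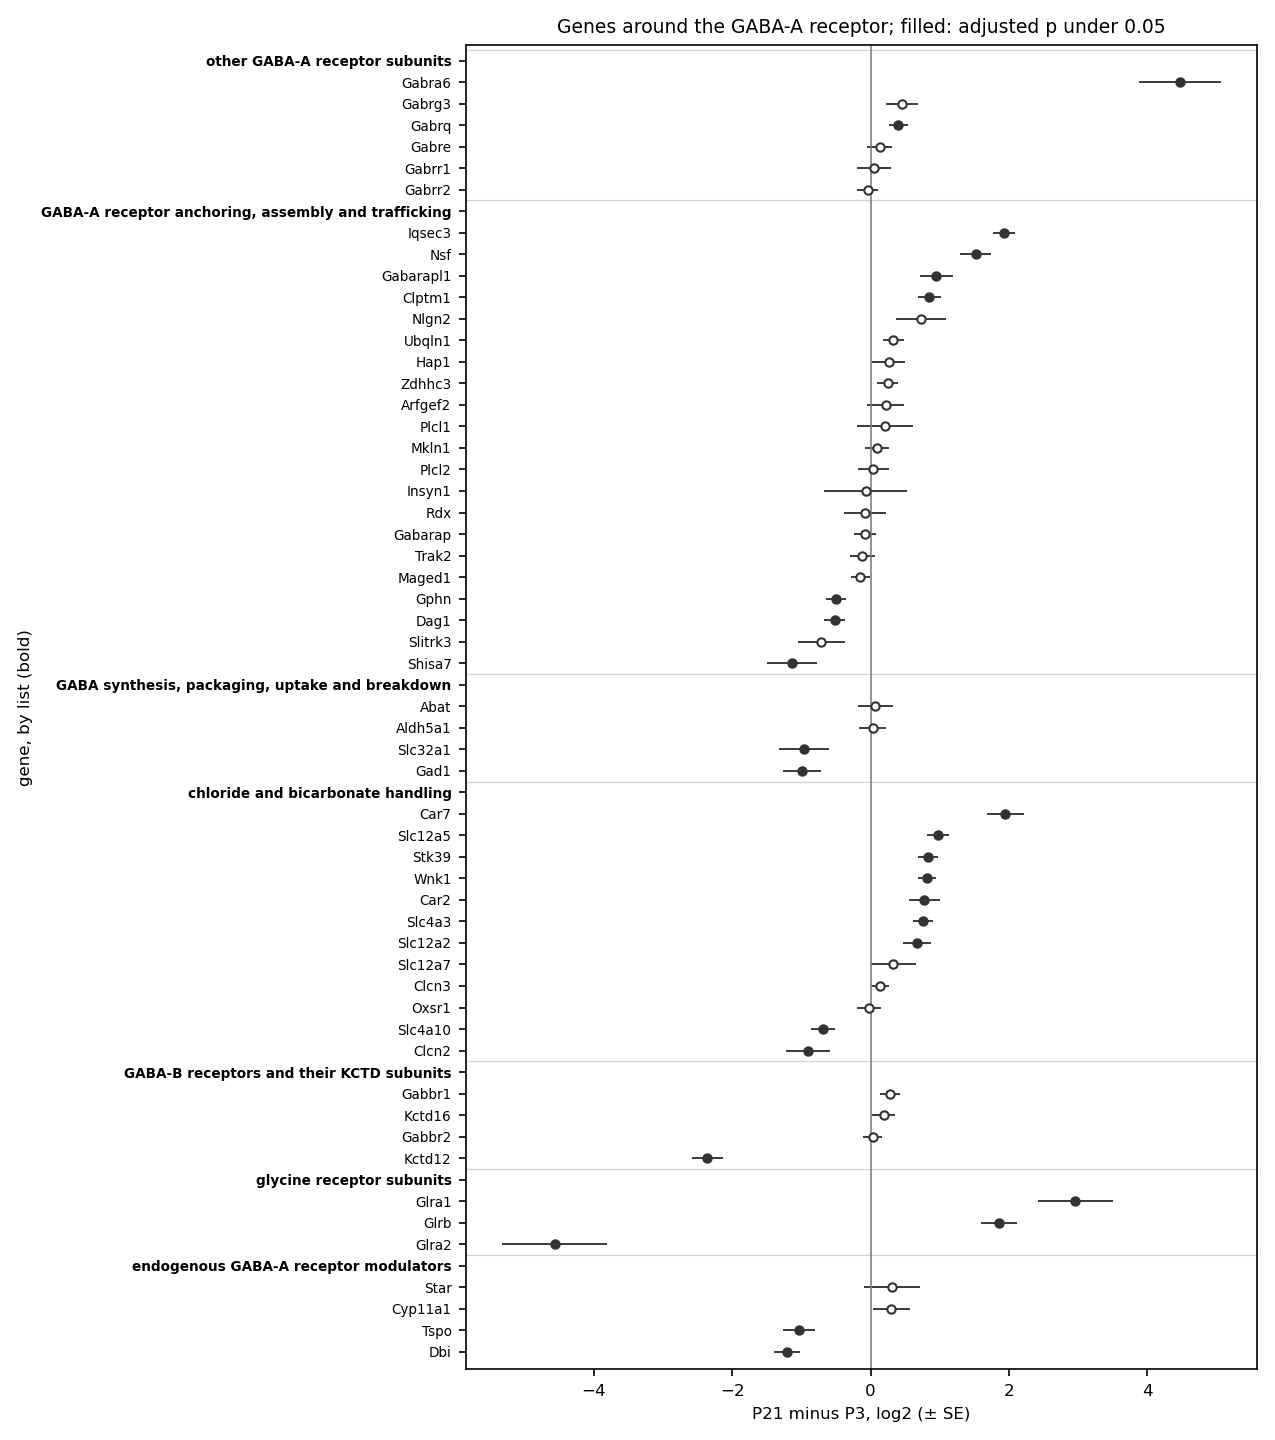
P21 minus P3 differences (horizontal axis, log2, ± SE) of the tested genes of 7 lists around the GABA-A receptor, each gene at its brightest probe set, with filled points for an adjusted p under 0.05. Of the chloride and bicarbonate list 7 of 12 points are filled on the right of zero and 2 on the left, and the anchoring list has 4 and 3 of 21.

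Genes of GABA supply fell or were not called at P21 relative to P3, where 19.0% of all probe sets were called lower. Of 4 tested, Gad1, which makes GABA, and Slc32a1, which loads it and glycine into vesicles, fell at P21 relative to P3 by 0.99 and 0.96 (limma adjusted p = 0.00923 and 0.0458), and Abat and Aldh5a1, which break GABA down, stood at 0.07 and 0.03. Both calls were lost over 20 arrays (adjusted p = 0.168 and 0.286), that of Gad1 also with the mean of its probe sets (-0.40, adjusted p = 0.176), and that of Slc32a1 without any of several single arrays, P21 replicate 3 among them (-0.66, adjusted p = 0.129). Markers of inhibitory neurons, a list that includes both genes, are given beside them. At P21 relative to P3, 0 of 7 tested rose and 5 fell, with Gad1 and Slc32a1 among the 5 (all: 20.1% and 19.0%). The summed intensity of the 11 measured markers was 650 to 1739 at P21, against 1730 to 2948 at P3. Slc6a5, the glycine transporter of inhibitory terminals, was at or under log2 4 on every array of each group. The part of other neurons in these values, and in the subunit levels, was not tested.

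The receptors that act beside GABA-A changed at named members. Of the 4 genes of the GABA-B list, the receptor subunits Gabbr1 and Gabbr2 differed by 0.28 and 0.03 at P21 relative to P3 and were not called, while Kctd12, the auxiliary subunit that speeds GABA-B desensitization, fell. Its levels were 10.42 to 10.95 at P3, 10.01, 9.25, 9.07 and 10.11 on P8 replicates 1 to 4, 9.70 to 10.69 on P8 replicates 5 to 9 and 8.82, 8.26, 7.90, 8.72 and 8.22 at P21. Every P21 array was below all others, P8 replicates 5 to 9 overlapped P3, and P21 minus P3 was -2.36 ± 0.22 (limma adjusted p = 1.14e-06). Of the glycine receptor genes, Glra2, the alpha subunit of immature neurons, fell at P21 relative to P3 (-4.57, adjusted p = 2.34e-04, and 0.0199 over 20 arrays). It had 8.14 to 10.33 on P8 replicates 1 to 4 and 2.70 to 6.86 on P8 replicates 5 to 9, against 8.14 to 9.23 at P3, and over 20 arrays neither step was called (adjusted p = 0.171 for P21 minus P8 and 0.104 for P8 minus P3). Glrb, the beta subunit that binds gephyrin, differed by 1.86 (adjusted p = 5.09e-05), a call lost over 20 arrays (adjusted p = 0.119), with P8 replicates 5 to 9 at or under 7.46, below every P3 array. Glra1, the adult alpha subunit, met the rule for testing only through P21, where it was highest, and its difference of 2.96 is a description. Among genes of endogenous modulators 0 of 4 rose and 2 fell at P21 relative to P3 (all: 20.1% and 19.0%). Dbi, which encodes the diazepam binding inhibitor, fell by 1.21 and Tspo by 1.03 (adjusted p = 1.58e-04 and 0.00235). The call of Tspo was lost over 20 arrays (adjusted p = 0.138), and that of Dbi was kept (adjusted p = 0.0173).

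Within the family, levels over the 15 arrays were most alike for Gabra2 and Gabra5 (Pearson r = 0.68) and most opposed for Gabra5 and Gabrd 1369048_at (-0.70) and for Gabrb1 and Gabrd (-0.68), whereas Gabrb1 and Gabrb2 had 0.09. These values are descriptions, since the arrays share their age steps. Among 11828 other genes the patterns most like that of Gabrd were Zfp365 (r = 0.95), Tmem108 and Slc19a2 (both 0.94). After the age means were taken out their r was 0.70, 0.76 and 0.59. These genes were picked by r on the same arrays, which favours high values here, so nothing is concluded from them. For Gabra5 the nearest were Myef2, Wdr13 and Selenoh (0.95, 0.95 and 0.94), and for Gabra2 Cask, Atad1 and Palld (0.87, 0.87 and 0.86). Gabrb1 was nearest to LOC102556004, Mms22l and Taldo1 (0.92, 0.92 and 0.91), Gabrb2 to Mrpl1, Acp2 and Atp11b (0.87, 0.87 and 0.86), and Gabrg1 to Tnrc6c, Cdh22 and Rbfox2 (0.88, 0.84 and 0.82).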

How the data were processed

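The deposited values are linear intensities with 1 decimal, 1 for each probe set on each of 20 arrays, and every column was matched to its sample by title. The authors scaled each array, as the values show: without the lowest and highest 2% the mean intensity was 100 throughout. The submitters' processing notes name GCRMA, whose output is log2, so what made these linear values is not given there. Control probe sets (57), those annotated to several genes (436) and those unnamed here (9831) were left out. Symbols were updated through RefSeq (GRCr8): 20758 by Entrez identifier, 2 by accession, 66 kept.

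Here log2(intensity + 1) was fitted with limma 3.58.1 (R 4.3.3), using lmFit and eBayes on P3, P8 replicates 1 to 4 and P21 together. Single-gene probe sets above log2 4 on at least 5 of the 15 arrays were tested (15647), adjusted over all of them by Benjamini-Hochberg and called under 0.05. The fit was also run on simulated independent normal values. These carry no differences in batch, RNA quality or cell content, so that run cannot speak to such differences here. Alternatives changed the arrays, filter, normalization, pseudocount, variance model, probe set unit and block. Listed genes were read at their brightest probe set, and up to 2 called genes per list and comparison were named by rule, while Gphn, Shisa7, Slc12a2, Stk39, Glra1 and the uncalled genes were added after their values were seen. The subunits, array sets and gene lists were chosen with earlier results of these data known. Samples are labelled biological replicates, with no litter or date, and the number of arrays limits the precision.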

Additional observations from a re-analysis of the deposited data

Results flagged for a closer look

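Among 40 sets of arrays (10 probe sets in 4 sets) 3 held a lone value by Dixon's test, and chance flags about 1 set in 20. Gabrb2 1377773_at was 7.56 on P3 replicate 1, against 8.07 to 8.35 on the other P3 arrays. Gabrg1 1387706_at was 5.56 on P21 replicate 1, against 4.34 to 4.58 on the other P21 arrays, and P21 replicate 1 also had the lowest levels of Gabra2 (2.56) and Gabrb1 (4.78). Gabrd 1369048_at was 6.69 on P21 replicate 4, against 7.78 to 8.08 on the other P21 arrays, and its P21 minus P3 difference was 2.29 to 2.64 over the fits leaving out 1 array.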

How the results depend on the processing

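Over 12 other settings (fewer where a probe set dropped out), 220 of 243 subunit values and 315 of 341 values of the named list genes kept their direction and side of the threshold, and so did 290 of 315 and 418 of 435 values when 1 array was left out. The P21 minus P3 calls of Gabra5 and of Gabrd 1369048_at kept both under every one of these.

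Counts of calls moved as follows. Over all 20 arrays 4486 probe sets were called for P8 against P3 (2435 over 15), 2184 for P21 against P3 (6114) and 0 of the tested subunit probe sets for P21 against P8 (2). The P21 and P3 arrays are the same in both fits, so for P21 against P3 the shared spread and the set of tested probe sets changed, not the differences. With only the ages compared, 1349 were called for P21 against P8 (2619), and 1 subunit probe set. The subunit count for P8 against P3 was 0 instead of 1 with array medians subtracted, with array weights, without the filter and with only the ages compared. Leaving out 1 array gave 1790 to 2503, 2072 to 2799 and 5451 to 6675 calls for P8 against P3, P21 against P8 and P21 against P3, and 0 to 1, 2 to 2 and 2 to 5 subunit probe sets, with 2 in the last comparison without P21 replicate 1. All 20 arrays moved the median difference of tested probe sets to 0.14 for P8 minus P3 and -0.20 for P21 minus P8, and 15 arrays had -0.02 and 0.05.

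Replicate numbers did not pair the samples: deviations of same-numbered arrays had correlations of -0.0603 to 0.0776 over 13 pairs. With the replicate block, 1306 probe sets and 0 subunit probe sets were called for P8 against P3.

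Directions that turned belonged mostly to uncalled values. Over 20 arrays P8 minus P3 was -0.81 for Gabrb2 1377773_at, 0.26 for Gabrg1, -1.23 for Nsf and -0.15 for Glrb, and P21 minus P8 was -0.72 for Gabrg1 and 0.04 for Slc4a10. P21 minus P8 of Gabrg1 was -0.02 with array medians subtracted, -0.15 with array weights and -0.05 after quantile normalization, and -0.24 to 0.28 leaving out 1 array. For Gabrb2, P21 minus P8 was -0.31 with the mean of its probe sets and -0.23 to 0.67 leaving out 1 array. Gabrd 1395269_s_at had 0.09 for P8 minus P3 with the replicate block, -0.03 for P21 minus P3 with array weights, and leaving out 1 array -0.13 to 0.16 for P21 minus P3 and -0.00 to 0.28 for P21 minus P8. The cause was not tested for any of these. Signal close to log2 4 limits Gabra2, Gabra3 and Gabrg1.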
